A study of Mus musculus with 10 samples.

Results

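The lysosome and vacuolar ATPase genes were examined in RNA from a mouse small cell lung cancer (mSCLC) line. The 53 genes were chosen by symbol, as subunits of the vacuolar ATPase (V-ATPase), lysosomal hydrolases and their helpers, lysosomal membrane proteins and the MiT transcription factors, and all 53 were found among the 26335 genes of the deposited table. Cells were cultured for 48 h with DMSO (control, 5 libraries) or with 250 μM stiripentol, an antiepileptic drug (5 libraries), to compare gene expression with and without the drug. The line was established from a primary lung tumour of a mouse model in which Rb1 and Trp53 are deleted, so control and treated cells both carry those deletions, and a single line was sequenced. The table holds the log2 CPM of each gene in each library, that is, the reads of the gene as a share of the depth of its library (CPM), on a log2 scale. Nothing in the sample records says that the 5 libraries of a group came from separate cultures, so a p-value here measures the spread between libraries, which may be technical.

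Depth was 22375625 to 65299372 recovered reads in control libraries (median 63607057) and 55015760 to 60670901 in stiripentol libraries (median 57977596). The libraries of each group fell into 2 sets, which were seen in the data and are not in the labels. The smaller set holds controls 4 and 5 with stiripentol libraries 1 and 2, and the larger set holds controls 1 to 3 with stiripentol libraries 3 to 5. The split was found within each group. Whether the controls and the stiripentol libraries of a set belong together was not tested. Across genes, libraries of the same group correlated at 0.983 to 0.997 within a set and at 0.920 to 0.939 between sets. Controls 1 to 3 had also been normalized apart from the other 7 libraries, since a gene without reads stood at -4.82 in them and at -4.74 elsewhere. Of 10 neuroendocrine markers that define small cell lung cancer, 7 were in the table and 5 of these averaged under 1 CPM, whereas Ncam1 averaged 123 CPM.

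The lysosome is the acid compartment in which cells digest proteins, sugars, lipids and nucleic acids. The V-ATPase acidifies it: the cytosolic V1 sector hydrolyses ATP and turns a rotor that drives protons through the membrane-bound V0 sector. TFEB, TFE3 and MITF, transcription factors of the MiT family, bind a short DNA element with the core CACGTG near the starts of many lysosomal genes and, when they enter the nucleus, raise the expression of those genes together.

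That core was searched for in the promoters of these genes, taken as 250 bases before to 50 bases after each start in RefSeq on GRCm38.p6, on both strands. A promoter was at hand for 44 of the 53 genes. CACGTG was present in 16 of the 44 (36.4%), compared with 8.09% of the promoters of 27025 genes and 11.9% of those of the 9144 genes that were also tested for expression. The longer TCACGTG, which contains it, was present in 14 of the 44 (31.8%, against 4.29% and 7.15%), and the palindrome TCACGTGA, which contains both, in 8 (18.2%, against 1.12% and 2.33%). The genes were chosen for their link to the lysosome, so these shares describe that choice and not an effect of stiripentol. The 6 stretches below are shown because they belong to the genes that carry the core and were called higher with stiripentol. The stretches come from the strand of the gene, with CACGTG in capitals.
Atp6v0b (chr4:117887322-117887385, minus strand, base -56 to base 8 from the start): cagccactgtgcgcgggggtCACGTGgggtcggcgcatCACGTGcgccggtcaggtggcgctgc
Atp6v0d1 (chr8:105566050-105566087, minus strand, base -23 to base 15): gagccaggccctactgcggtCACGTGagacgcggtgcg
Atp6v1a (chr16:44139365-44139410, minus strand, base -151 to base -106): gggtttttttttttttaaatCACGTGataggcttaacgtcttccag
Mcoln1 (chr8:3500428-3500499, plus strand, base -91 to base -20): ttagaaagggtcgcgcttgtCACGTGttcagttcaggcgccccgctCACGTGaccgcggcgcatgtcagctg
Lamp1 (chr8:13159080-13159171, plus strand, base -81 to base 11): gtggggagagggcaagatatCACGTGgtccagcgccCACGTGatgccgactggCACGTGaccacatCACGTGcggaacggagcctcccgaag
Gla (chrX:134601174-134601252, minus strand, base -247 to base -169): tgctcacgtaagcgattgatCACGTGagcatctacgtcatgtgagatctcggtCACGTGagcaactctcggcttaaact
Lamp1 carried 4 copies of the core within this stretch, Atp6v0b, Mcoln1 and Gla carried 2 each, and Atp6v0d1 and Atp6v1a carried 1. The core was present in 6 of the 18 promoters of genes called higher and in 10 of the 26 promoters of the others, among them Cln3 and Glb1, which are shown for contrast because neither was called. The others also include Gaa, Naglu and Sgsh, which carry the core and had log2 changes of 0.55, 0.63 and 0.56 that did not pass the test, and Ctsf, which was not tested.
Cln3 (chr7:126583332-126583405, minus strand, base -169 to base -96): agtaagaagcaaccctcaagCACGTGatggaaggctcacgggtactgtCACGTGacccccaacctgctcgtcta
Glb1 (chr9:114401010-114401055, plus strand, base -68 to base -23): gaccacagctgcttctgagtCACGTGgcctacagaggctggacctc
None of the 3 genes called lower had it in the window searched. The 15 tested genes with the core had a median log2 change of 0.55, against 0.49 for all 52 tested genes of the list. A match is a run of letters and was not tested as a binding site.

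With stiripentol, 24 of the lysosome and V-ATPase genes were called higher, 12 of them V-ATPase genes. Of the 53 genes, 52 passed the filter (mean log2 CPM above 0), 24 rose, 3 fell and 25 did not pass the test (limma over 12306 genes, adjusted p under 0.05). Over all genes tested, 13.6% rose and 14.1% fell. All 5 stiripentol libraries lay above all 5 controls for 22 of the 52 genes, compared with 13.0% of all genes, and below them for 2, compared with 14.3%. The median log2 change of the 52 genes was 0.49 and that of all genes tested was -0.06. The change was above 0 for 41 of the 52 and below 0 for 11, compared with 5710 and 6596 of all 12306 genes. Counted per class, 12 of 15 V-ATPase genes rose and none fell (limma, also none at an unadjusted p under 0.05), 8 of 28 luminal and lipid-handling proteins rose and 3 fell, 3 of 6 membrane proteins rose, and 1 of 3 MiT factors rose. The log2 changes called ranged up to 1.80 for Npc1 and down to -1.18 for Ids.

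**Figure D1:**
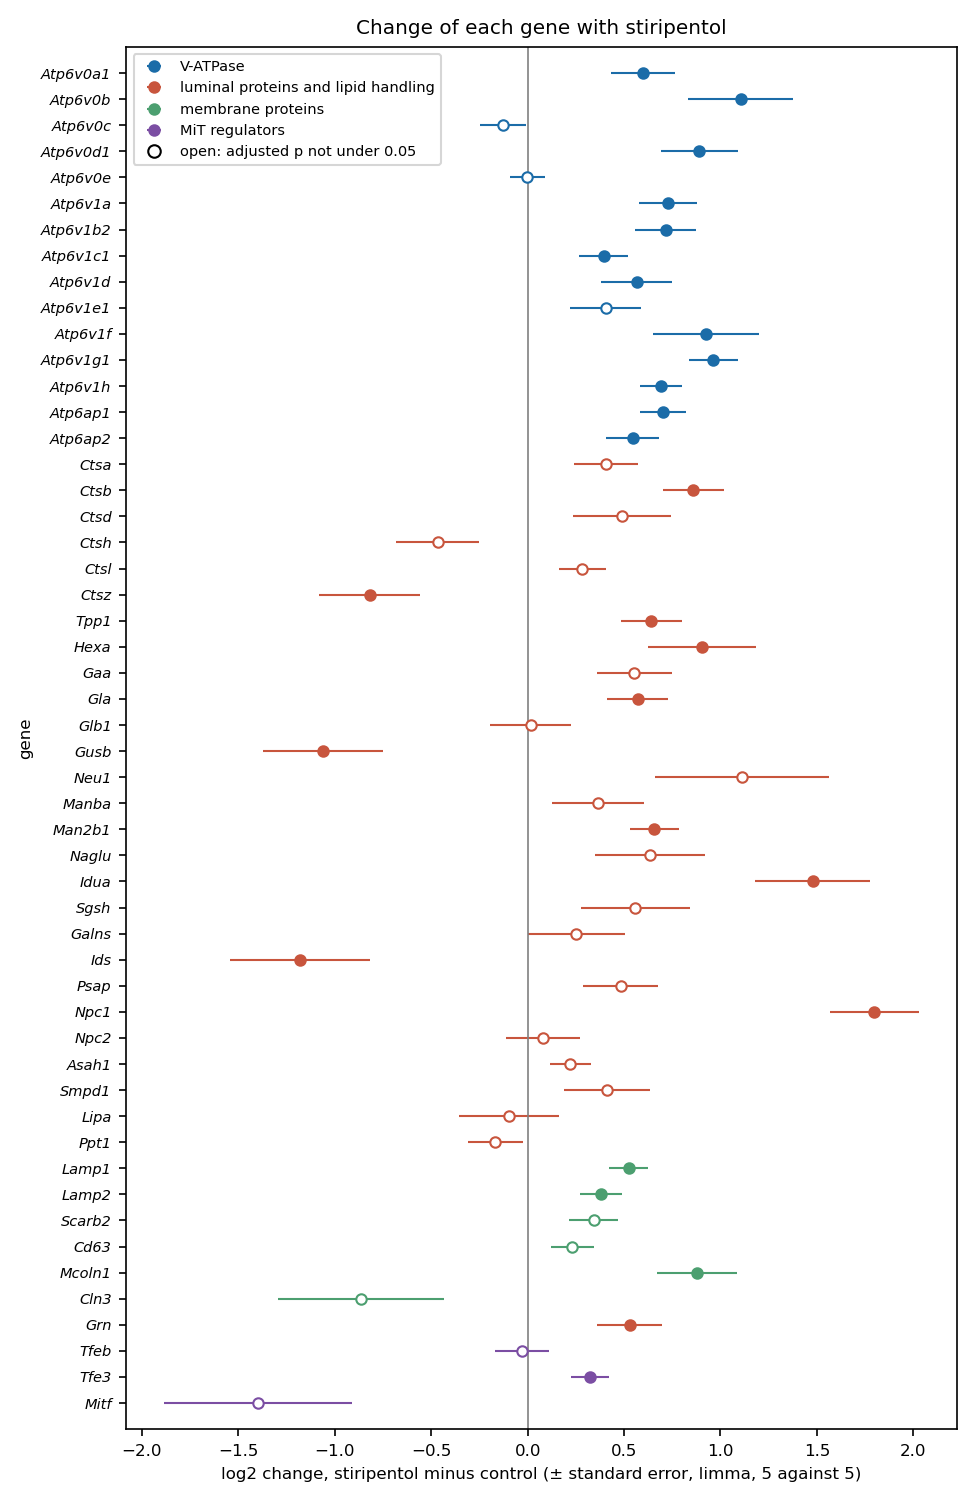
Log2 change in expression (stiripentol minus control, x axis, with the limma standard error as bars, 5 against 5 libraries) of the 52 tested genes, coloured by class, with filled points for adjusted p under 0.05. Filled points to the right of 0 number 24 and to the left 3, which are Ctsz, Gusb and Ids.

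These counts moved with single libraries and with the choice of controls. Without control 2, 15 genes rose (10.0% of all genes in that fit), and in each of the fits without control 1, 2 or 3 or stiripentol library 2 no gene fell (limma, with 4 or 5 genes lower at an unadjusted p under 0.05 in these fits, where 9.82%, 9.80%, 10.4% and 9.52% of all genes fell). With controls 4 and 5 alone as controls, 10 genes rose and 1 fell (10.1% and 9.87% of all genes in that fit). These controls were normalized together with the 5 stiripentol libraries. The median change was 0.16 for the 52 genes and -0.08 for all genes. Both controls are of the smaller set, whereas the stiripentol libraries are of both sets. Normalization, library set and the number of controls thus cannot be told apart in that fit. In these 7 libraries the 10 rises were those of Npc1, Idua, Atp6v1g1, Atp6v1h, Atp6ap1, Atp6v0a1, Ctsb, Man2b1, Lamp1 and Tpp1, the fall was that of Glb1, and 4 of the 15 V-ATPase genes rose. With a term for the library set, 34 genes rose and 5 fell (23.6% and 27.1% of all genes in that fit). The calls gained there were rises of Atp6v1e1, Ctsa, Ctsd, Gaa, Neu1, Manba, Psap, Smpd1, Scarb2 and Cd63 and falls of Ctsh and Mitf.

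The membrane-bound V0 sector was raised in 3 of its 5 subunits. Atp6v0b, a proteolipid of the rotor ring, measured 5.60, 5.66, 6.31, 7.13 and 6.67 log2 CPM in controls 1 to 5 and 7.56, 7.61, 7.25, 7.27 and 7.20 in stiripentol libraries 1 to 5. Every stiripentol library was above every control, and controls 1 and 2 were the lowest. Atp6v0b rose 2.15-fold, from a mean of 6.27 ± 0.66 (SD, n = 5) to 7.38 ± 0.19 (SD, n = 5), a difference of 1.10 in log2 (standard error 0.27, limma adjusted p = 0.0145). Atp6v0c, the other proteolipid of the ring, measured 8.15, 8.10, 8.18, 8.00 and 7.83 in controls and 7.70, 7.70, 8.07, 8.13 and 8.03 with stiripentol. Its groups overlapped, and its change of -0.13 (standard error 0.12, limma adjusted p = 0.445) did not pass the test. For Atp6v0b, 11.8% of exon bases are overlapped by a gene on the opposite strand, and whether counting used strand is not stated. The pseudogene of Atp6v0c held 13 reads over all libraries, against 145652 of the gene itself.
Atp6v0d1, which links the ring to the central stalk, measured 6.01, 6.11, 6.55, 7.09 and 6.83 in controls and 7.58, 7.54, 7.36, 7.30 and 7.27 with stiripentol. It rose by 0.89 (standard error 0.20, limma adjusted p = 0.00928) without overlap. Atp6v0a1, the subunit that forms the proton path, measured 6.87, 7.00, 7.66, 7.65 and 7.60 in controls and 7.94, 7.93, 7.95, 7.96 and 7.99 with stiripentol. Here the 5 stiripentol libraries spanned far less than the controls, of which controls 1 and 2 stood lowest. The rise of Atp6v0a1 was 0.60 (standard error 0.17, limma adjusted p = 0.0227), and it was not called without control 2, at 0.51. Atp6v0e, a small subunit of V0, had a ratio of 0.999 (limma adjusted p = 0.994), with 5.95 to 6.16 in controls and 5.98 to 6.12 with stiripentol. In the 7 libraries normalized together, the rises of Atp6v0b (0.48) and Atp6v0d1 (0.45) were not called, and that of Atp6v0a1 (0.33) was.

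The cytosolic V1 sector was raised in 7 of its 8 subunits. Atp6v1g1, part of the peripheral stalks, measured 6.62, 6.77, 6.87, 7.25 and 7.00 log2 CPM in controls and 8.01, 7.98, 7.81, 7.81 and 7.71 with stiripentol. The groups were apart, and the gene rose 1.95-fold (log2 change 0.96, standard error 0.13, limma adjusted p = 0.000638). Atp6v1f, a subunit of the central stalk, measured 5.73, 5.61, 6.03, 7.08 and 6.83 in controls and 7.41, 7.31, 7.12, 7.13 and 6.94 with stiripentol. Control 4 lay above stiripentol library 5, so the groups overlapped. Its rise of 0.93 (standard error 0.28, limma adjusted p = 0.0302) was lost in 5 of the fits that left out 1 library, those without controls 1, 2 or 3 or stiripentol libraries 1 or 2, with 0.76 to 0.89 in these. Atp6v1a, the catalytic subunit, measured 7.06, 7.08, 7.48, 7.62 and 7.58 in controls and 8.31, 8.32, 7.96, 7.90 and 7.97 with stiripentol. All 5 stiripentol libraries were above the controls, with libraries 1 and 2 highest, and Atp6v1a rose by 0.73 (standard error 0.15, limma adjusted p = 0.00603).
Of the other V1 subunits, the nucleotide-binding Atp6v1b2 rose by 0.72 and the regulatory Atp6v1h by 0.69, both without overlap between groups. Atp6v1d of the central stalk rose by 0.56 and Atp6v1c1, which joins the stalks, by 0.39, both with overlap. Both were called with all libraries and in only 2 of the 10 fits that left out 1 library, those without control 4 or control 5. Atp6v1e1, a peripheral stalk subunit, did not pass the test (log2 change 0.40, limma adjusted p = 0.126), and passed it without control 4 (0.53). In the 7 libraries normalized together, Atp6v1g1 (0.74) and Atp6v1h (0.54) were called, and Atp6v1a (0.49), Atp6v1b2 (0.36), Atp6v1f (0.23), Atp6v1d (0.17) and Atp6v1c1 (0.15) were not.
Both accessory proteins of the pump rose. Atp6ap1, which helps the V0 sector to assemble, measured 7.14, 7.16, 7.52, 7.63 and 7.56 in controls and 8.22, 8.19, 8.01, 8.04 and 8.06 with stiripentol, a rise of 0.70 (standard error 0.12, limma adjusted p = 0.00234). Atp6ap2, also known as the prorenin receptor, measured 6.16, 6.28, 6.64, 6.79 and 6.71 in controls and 6.91, 6.93, 7.19, 7.11 and 7.16 with stiripentol, a rise of 0.54 (standard error 0.14, limma adjusted p = 0.0164). Neither gene had a control as high as its lowest stiripentol library, and in the 7 libraries normalized together Atp6ap1 (0.51) was called and Atp6ap2 (0.31) was not.

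**Figure D2:**
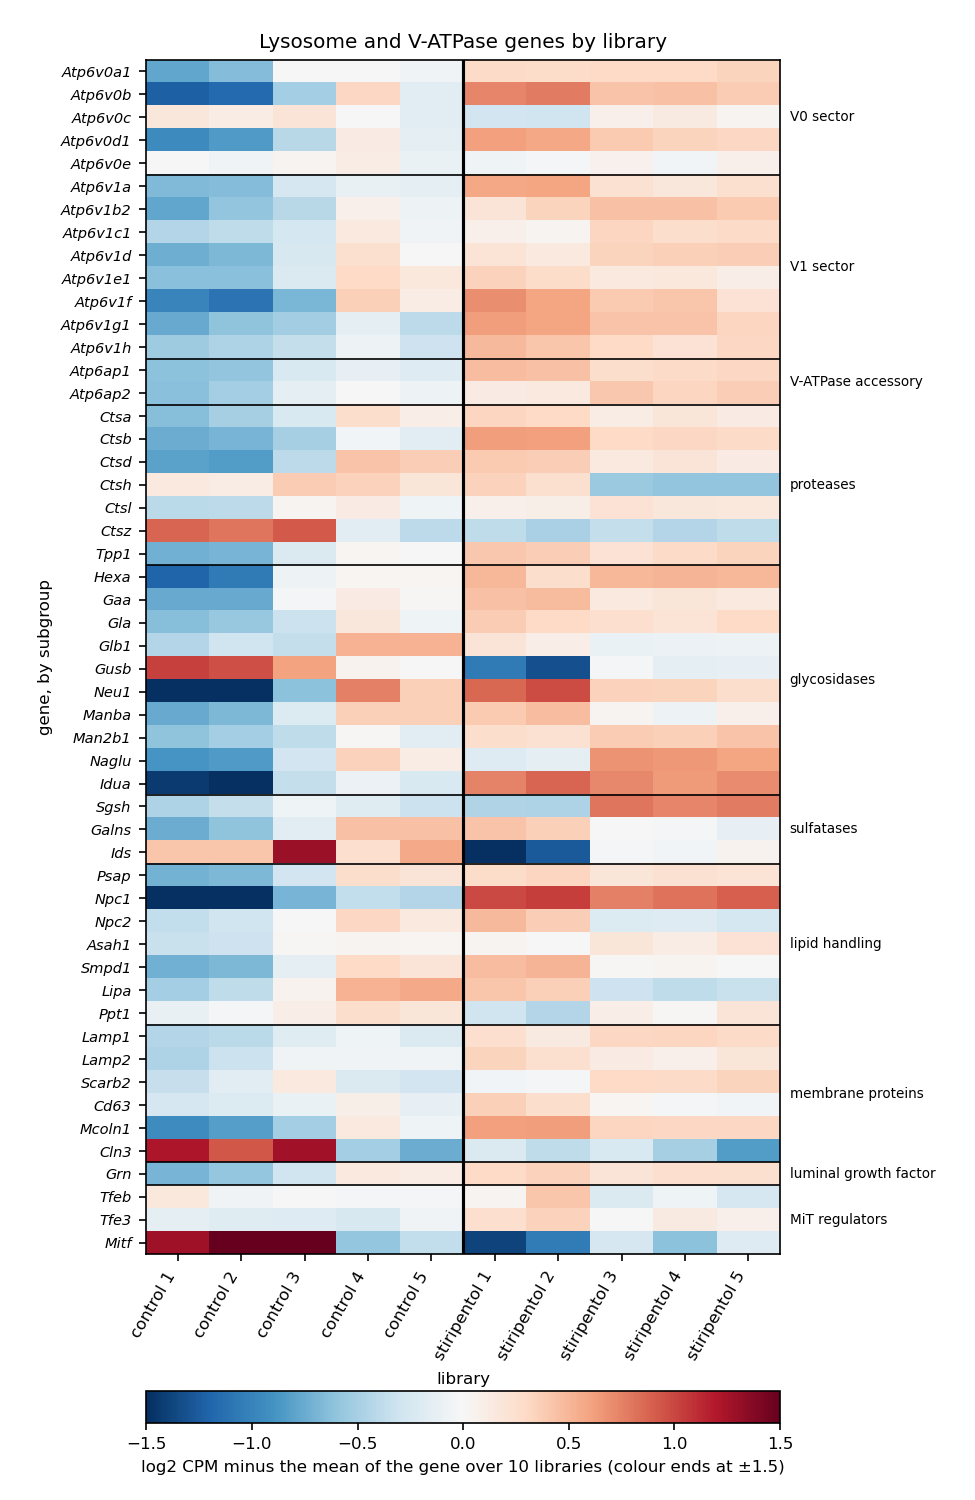
Expression of the 52 tested genes (rows, by subgroup) in the 10 libraries (columns), as log2 CPM minus the mean of the gene over all libraries, with colour ending at ±1.5. Controls 1 and 2 are blue for most genes, and control 3 lies above them and below controls 4 and 5 for 34 genes. The rows of Ctsz, Gusb, Ids, Cln3 and Mitf run the other way.

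For the lysosomal proteases the calls were few, where 13.6% of all genes tested rose and 14.1% fell. Of the 7 tested, 2 rose, 1 fell and 4 did not pass the test. Ctsb, the cysteine protease cathepsin B, measured 9.17, 9.21, 9.42, 9.87 and 9.75 log2 CPM in controls and 10.54, 10.53, 10.21, 10.23 and 10.20 with stiripentol. It rose 1.81-fold without overlap (log2 change 0.86, standard error 0.16, limma adjusted p = 0.00353). Tpp1, a tripeptidyl peptidase, measured 6.86, 6.88, 7.36, 7.60 and 7.56 in controls and 7.98, 7.94, 7.79, 7.86 and 7.90 with stiripentol, and its rise of 0.64 (standard error 0.16, limma adjusted p = 0.0145) was also without overlap. Ctsz, the carboxypeptidase cathepsin Z, measured 5.94, 5.88, 6.00, 4.92 and 4.68 in controls and 4.69, 4.59, 4.71, 4.64 and 4.69 with stiripentol. Controls 1 to 3 were thus far above every other library, while controls 4 and 5 lay near the stiripentol level. Ctsz fell by 0.82 (standard error 0.26, limma adjusted p = 0.0391), and the fall passed the test in only 2 of the 10 fits that left out 1 library, those without control 4 or control 5. The aspartic protease gene Ctsd (log2 change 0.49, limma adjusted p = 0.167), Ctsa (0.41), Ctsl (0.28) and Ctsh (-0.47) did not pass the test. In the 7 libraries normalized together, Ctsb (0.53) and Tpp1 (0.31) were called and Ctsz (-0.13) was not. In GENCODE M21, 34.4% of the exon bases of Ctsd are shared with another gene model on the same strand, so its count depends on how such reads were assigned. Ctsf had 1 to 12 reads per library and was not tested. It stood at -2.19, -3.52, -3.13, -2.15 and -1.51 in controls and -2.56, -4.19, -3.49, -4.21 and -4.17 with stiripentol.

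Among 10 glycosidases, which remove sugars from glycoproteins, glycolipids and glycosaminoglycans, 4 rose and 1 fell. Idua, the iduronidase that cuts heparan and dermatan sulfate, measured 2.46, 2.30, 3.54, 3.81 and 3.67 log2 CPM in controls and 4.64, 4.76, 4.61, 4.54 and 4.61 with stiripentol. The groups did not overlap, and Idua rose 2.78-fold (log2 change 1.48, standard error 0.30, limma adjusted p = 0.00557). Hexa, the alpha subunit of hexosaminidase, measured 1.43, 1.57, 2.55, 2.66 and 2.66 in controls and 3.12, 2.89, 3.12, 3.14 and 3.13 with stiripentol. It rose by 0.91 (standard error 0.28, limma adjusted p = 0.0348) and kept the call in only 3 of the 10 fits without 1 library, those without controls 3, 4 or 5. Hexa rested on 141 to 526 reads per library, and 12.8% of its exon bases are overlapped on the opposite strand. Man2b1, an alpha-mannosidase, rose by 0.66 and Gla, the alpha-galactosidase that cleaves globotriaosylceramide, by 0.57, the latter not called without controls 1, 2 or 3.
Gusb, the beta-glucuronidase, measured 6.60, 6.54, 6.18, 5.63 and 5.57 in controls and 4.51, 4.26, 5.55, 5.44 and 5.45 with stiripentol. All stiripentol libraries were below all controls, by little for libraries 3 to 5 and by more for libraries 1 and 2. It fell by 1.06 (standard error 0.31, limma adjusted p = 0.0290), a fall that was not called without controls 1, 2 or 3 or stiripentol libraries 1 or 2, at -1.04 to -0.87. Neu1, the sialidase, spread most among controls, with 5.19 and 5.21 in controls 1 and 2, 6.22 in control 3 and 7.60 and 7.20 in controls 4 and 5, against 7.70, 7.82, 7.19, 7.17 and 7.10 with stiripentol. Its mean change of 1.11 did not pass the test (standard error 0.45, limma adjusted p = 0.0890) and passed it without control 4, at 1.44. Gaa, the acid alpha-glucosidase, was above the controls in all 5 stiripentol libraries but just missed the threshold (log2 change 0.55, limma adjusted p = 0.0550). Naglu (0.63), Manba (0.37) and Glb1 (0.02) were not called. In the 7 libraries normalized together, Idua (0.90) and Man2b1 (0.40) were called, Hexa (0.42), Gla (0.23) and Gusb (-0.56) were not, and Glb1 fell by 0.52.

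Of the 3 sulfatases, 1 fell and none rose (limma, also none at an unadjusted p under 0.05). Ids, the iduronate sulfatase that acts just before Idua on the same glycosaminoglycans, measured 6.59, 6.59, 7.48, 6.42 and 6.75 log2 CPM in controls and 4.50, 4.92, 6.15, 6.14 and 6.23 with stiripentol. The groups did not overlap, with control 3 highest and stiripentol libraries 1 and 2 lowest. Ids fell by 1.18 (standard error 0.36, limma adjusted p = 0.0336), the opposite sign to Idua, and lost the call in 6 of the 10 fits without 1 library (controls 1, 2, 3 or 5, stiripentol libraries 1 or 2), at -1.22 to -0.91, and it was not called in the 7 libraries normalized together. Sgsh, the heparan sulfamidase, measured 4.20 to 4.59 in controls, 4.21 and 4.20 in stiripentol libraries 1 and 2, and 5.46, 5.39 and 5.43 in libraries 3 to 5. Its exon bases are overlapped on the opposite strand to 21.6%. The change of 0.56 in Sgsh (limma adjusted p = 0.158) and that of Galns (0.25, limma adjusted p = 0.462) did not pass the test.

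Of 7 lipid-handling genes, only Npc1 rose. Npc1, the membrane protein that moves cholesterol out of the lysosome, measured 4.95, 4.95, 5.75, 6.08 and 6.01 log2 CPM in controls and 7.44, 7.48, 7.21, 7.26 and 7.34 with stiripentol. Every stiripentol library was above every control, with controls 1 and 2 lowest. Npc1 rose 3.48-fold, from 5.55 ± 0.56 (SD, n = 5) to 7.35 ± 0.12 (SD, n = 5), a difference of 1.80 in log2 (standard error 0.23, limma adjusted p = 0.000605). In the 7 libraries normalized together its rise was 1.30 and was called. Npc2, the soluble protein that hands cholesterol to Npc1, did not pass the test (log2 change 0.08, limma adjusted p = 0.772). The saposin precursor Psap (0.48, limma adjusted p = 0.0873), the sphingomyelinase Smpd1 (0.41), the ceramidase Asah1 (0.22), the acid lipase Lipa (-0.10) and the thioesterase Ppt1 (-0.17) also did not.

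Of 6 membrane proteins, 3 rose. Mcoln1, a calcium channel of the lysosomal membrane, measured 5.45, 5.56, 5.89, 6.54 and 6.33 log2 CPM in controls and 7.01, 7.02, 6.71, 6.70 and 6.70 with stiripentol, a rise of 0.88 (standard error 0.21, limma adjusted p = 0.0121). Lamp1, which lines the membrane, measured 9.42, 9.46, 9.68, 9.80 and 9.64 in controls and 10.12, 9.99, 10.17, 10.18 and 10.15 with stiripentol, a rise of 0.52 (standard error 0.10, limma adjusted p = 0.00424). Lamp2, needed for fusion with autophagosomes, measured 8.25, 8.39, 8.66, 8.66 and 8.66 in controls and 9.04, 8.95, 8.83, 8.79 and 8.89 with stiripentol, a rise of 0.38 (standard error 0.11, limma adjusted p = 0.0265). No control of these 3 genes reached a stiripentol library, and Lamp2 alone of the 3 lost its call in fits without 1 library (controls 1 or 2, stiripentol libraries 1 or 2). In the 7 libraries normalized together, Lamp1 (0.40) was called and Mcoln1 (0.40), Lamp2 (0.24) and, in the lumen, Grn (0.14) were not. Scarb2 (0.34), which carries glucocerebrosidase, and Cd63 (0.23), a tetraspanin, did not pass the test. Cln3 had 20 to 236 reads per library and did not pass it either (-0.86, limma adjusted p = 0.154), with 1.86, 1.58 and 1.90 in controls 1 to 3, 0.13 and -0.10 in controls 4 and 5, and -0.20 to 0.42 with stiripentol. Grn, the progranulin precursor of luminal granulins, measured 8.70, 8.82, 9.09, 9.54 and 9.50 in controls and 9.69, 9.74, 9.58, 9.64 and 9.63 with stiripentol. It rose by 0.53 without overlap (standard error 0.17, limma adjusted p = 0.0376), and only the fits without control 4 or control 5 kept that call among the 10 that left out 1 library.

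**Figure D3:**
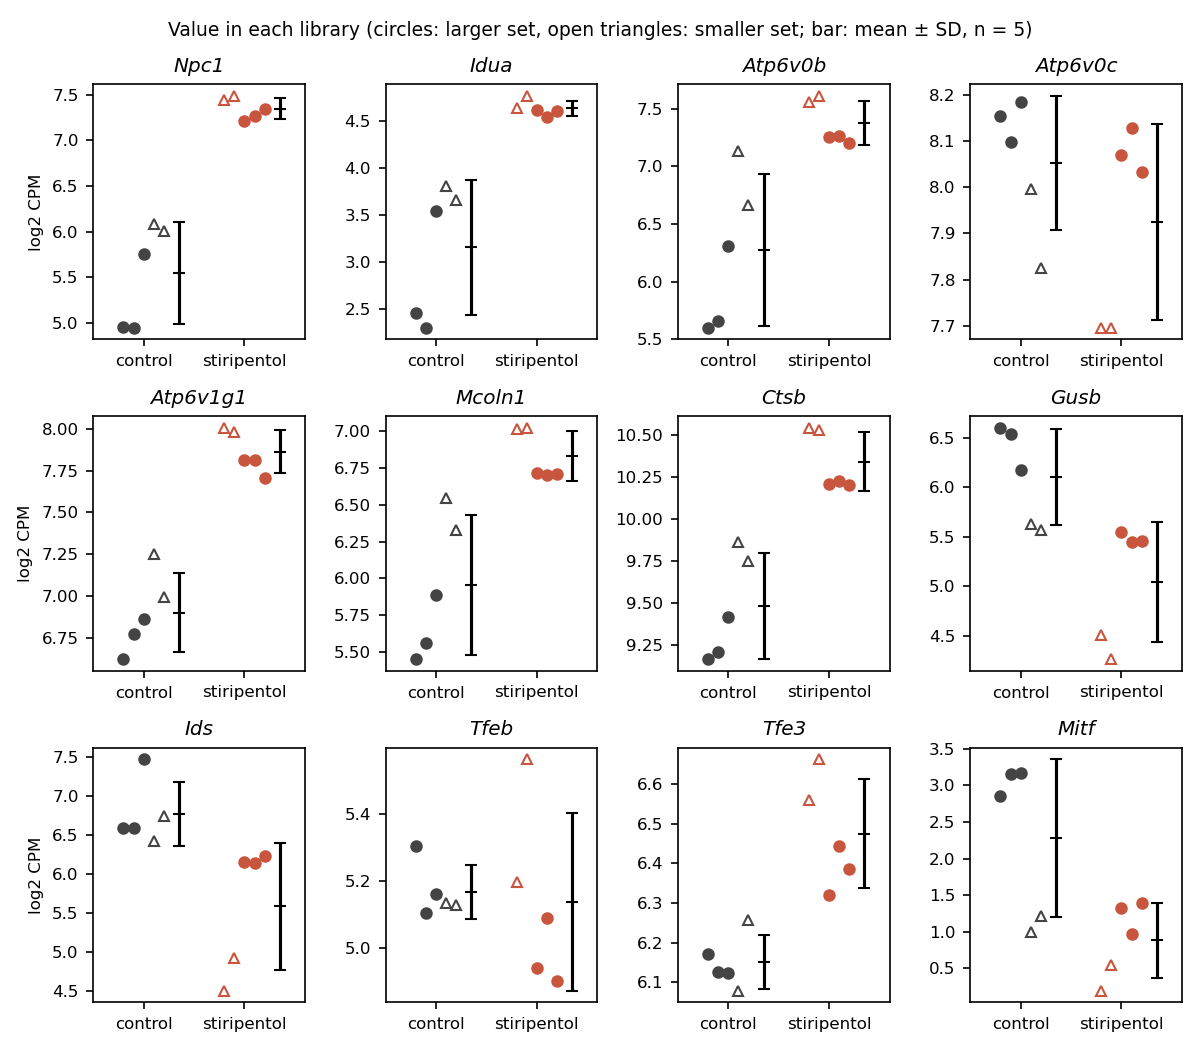
Log2 CPM (y axis, a separate scale per panel) of 12 genes in each control and stiripentol library, with circles for the larger set, open triangles for the smaller set, and the mean ± SD (n = 5) beside each group. Npc1, Idua, Atp6v0b, Atp6v1g1, Mcoln1, Ctsb and Tfe3 have all stiripentol points above all controls, Gusb and Ids have all below, and Atp6v0c, Tfeb and Mitf overlap.

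The MiT factors differed from each other. Tfeb measured 5.30, 5.10, 5.16, 5.13 and 5.13 log2 CPM in controls and 5.20, 5.56, 4.94, 5.09 and 4.90 with stiripentol. Its groups overlapped and its log2 change of -0.03 did not pass the test (standard error 0.14, limma adjusted p = 0.894). Tfe3 measured 6.17, 6.13, 6.12, 6.08 and 6.26 in controls and 6.56, 6.66, 6.32, 6.44 and 6.39 with stiripentol. Every stiripentol library was above every control, and Tfe3 rose 1.25-fold (log2 change 0.32, standard error 0.10, limma adjusted p = 0.0309), a call kept in only 3 of the 10 fits without 1 library, those without control 5 or stiripentol libraries 3 or 5, and not in the 7 libraries normalized together (0.31). Mitf measured 2.86, 3.16, 3.17, 1.00 and 1.21 in controls and 0.19, 0.54, 1.33, 0.97 and 1.39 with stiripentol. Controls 1 to 3 stood far above all other libraries, controls 4 and 5 overlapped with the stiripentol libraries, and the change of -1.40 just missed the threshold (standard error 0.49, limma adjusted p = 0.0549). RNA levels alone were measured, and the location of these factors in the cell, by which they are chiefly controlled, was not.

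Controls differed among themselves more than stiripentol libraries did. Across the 52 genes, the median range from lowest to highest library was 0.84 log2 units in controls and 0.30 with stiripentol. Over all genes tested the medians were 0.64 and 0.70. The wider range was in controls for 42 of the 52 genes, compared with 5808 of all 12306. Controls 4 and 5 were above controls 1 to 3 on average for 44 of the 52 genes, compared with 6296 of all 12306 genes tested. The median difference was 0.45, against 0.02 for all genes tested. Control 3 lay above both controls 1 and 2 and below both controls 4 and 5 for 34 of 52 genes (65.4%), compared with 20.4% of all genes. The opposite order was not counted. Among stiripentol libraries, 32 genes were higher in the smaller set, with a median difference of 0.16, against 33.9% and -0.32 for all genes tested. The V-ATPase genes showed the same order, with 14 of 15 higher in controls 4 and 5 (median 0.41).

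The change with stiripentol was therefore also taken within each set, with the untested match of controls to stiripentol libraries taken as given. In the larger set alone, 40 of the 52 genes rose and 6 fell (limma, against 37.7% and 27.0% of all genes), with a median change of 0.66. In the smaller set alone, 21 rose and 6 fell (limma, against 25.7% and 46.5%), with a median change of 0.23. The median change of all genes was 0.08 in the larger and -0.25 in the smaller set. In both sets separately, 21 genes rose, compared with 15.3% of all genes, and 3 fell, compared with 18.8%. The 21 were 18 of the 24 genes that rose over all libraries, with Gaa, Neu1 and Cd63, and the 3 were Gusb, Ids and Mitf. The 6 genes that rose over all libraries but not in each set were Atp6v1c1, Atp6v1d, Atp6ap2, Hexa, Gla and Grn. Each set holds few libraries that resemble each other closely, and when every set of a group was first averaged to 1 value, no gene passed the adjusted threshold (limma, 2 means against 2) and 7 of the 52 had an unadjusted p under 0.05.
The change itself differed between sets for 29 of the 52 genes (55.8%, limma interaction, adjusted p under 0.05), where 63.3% of all genes tested were called. It was more positive in the larger set for 24 of the 52 (46.2%, against 45.3% of all genes), a share near the background, and more positive in the smaller set for 5 (9.62%, against 18.1%). Without control 4 the count was 18, and without stiripentol library 2 it was 19. The share of all genes called was not counted in these fits. Signs were opposite in 11 of the 52 genes, compared with 4553 of all 12306 genes tested, which is a larger share. Naglu, the glucosaminidase of heparan sulfate breakdown, fell by 0.39 in the smaller set and rose by 1.32 in the larger (interaction 1.71, limma adjusted p = 5.18e-05). Glb1, the beta-galactosidase, likewise fell by 0.37 in the one and rose by 0.28 in the other (interaction 0.65, limma adjusted p = 0.000266). Sgsh, on the same pathway as Naglu, rose by 1.06 in the larger set and stood at -0.20 in the smaller, which did not pass the test (interaction 1.27, limma adjusted p = 4.74e-05). Cln3 fell by 1.66 and Ctsz by 1.26 in the larger set, with 0.33 and -0.16, neither called, in the smaller. Npc1 rose in both, by 1.42 and 2.05, as did Idua, by 0.97 and 1.82, and Atp6v0b, by 0.68 and 1.39. Atp6v1a changed by 0.72 and 0.73, Atp6v1h by 0.64 and 0.73 and Atp6v1g1 by 0.87 and 1.03.

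**Figure D4:**
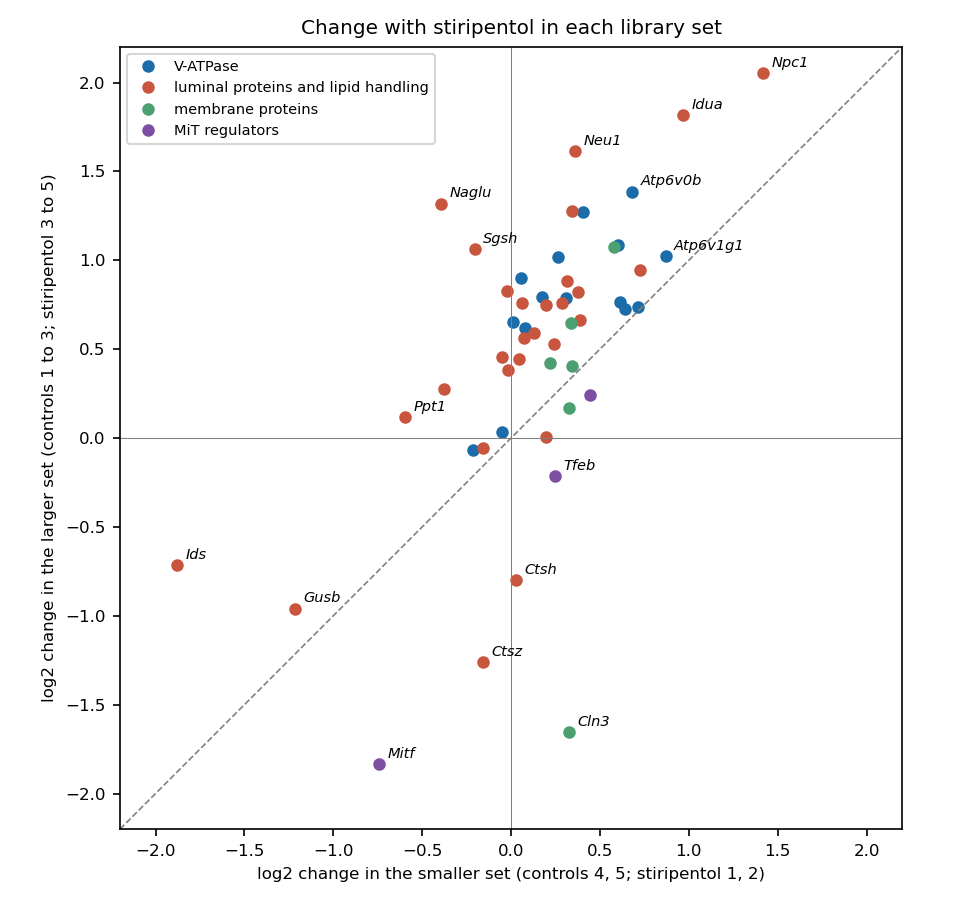
Log2 change with stiripentol in the smaller set (x axis, 2 against 2 libraries) and in the larger set (y axis, 3 against 3) for the 52 tested genes, coloured by class, with a dashed line where both are equal. Points lie above the line for 44 genes, and 8027 of all 12306 genes tested would also lie above it. Npc1 and Idua are high on both axes, and Naglu, Sgsh, Cln3 and Ctsz lie far from the line.

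Other genes of the compartment were counted in lists beyond the 53, beside the 13.6% of all genes that rose and the 14.1% that fell. Other isoforms of V-ATPase subunits had no rise (limma, 1 at an unadjusted p under 0.05) and 1 fall among 4 tested, that of Atp6v1g2 (-1.23), and the 7 assembly factors had no call (limma, 1 higher and 1 lower at an unadjusted p under 0.05). Of 28 further hydrolases, 4 rose (14.3%, near the background), led by Scpep1 (0.86), Rnaset2b (0.65) and Dpp7 (0.64), and 2 fell, Hyal2 (-1.72) and Galc (-0.55). Of 19 further membrane proteins, 6 rose (31.6%) and 2 fell, Tpcn1 (-0.92) and Slc29a3 (-0.58). Cd68, a heavily glycosylated membrane protein of the lysosome, rose 9.23-fold, with 2.05, 2.07, 2.64, 4.17 and 3.98 in controls and 6.68, 6.60, 5.78, 6.05 and 5.83 with stiripentol (log2 change 3.21, standard error 0.44, limma adjusted p = 0.000819), and Tmem192 rose by 0.98. Among 9 genes of mannose 6-phosphate sorting, Gnptg (0.86) and the receptor gene Igf2r (0.75) rose (22.2%). Among 12 genes of the Rag, Ragulator and folliculin complexes, which tie mTORC1 to the lysosome, 3 rose. Rragd rose 4.71-fold, with 2.05, 1.98, 3.14, 3.46 and 3.40 in controls and 4.56, 5.01, 5.05, 5.31 and 5.28 with stiripentol (log2 change 2.24, standard error 0.32, limma adjusted p = 0.00111). Lamtor5 (0.35) and Lamtor2 (0.31) rose as well, and Flcn, at 1.01, did not pass the test (limma adjusted p = 0.0792).

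Marker sums of several cell types lay apart in the 2 groups. The summed level of 8 fibroblast markers was 346 to 490 CPM in controls and 148 to 184 CPM with stiripentol. Of these 8, 3 averaged under 1 CPM. Col1a2, Pdgfra and Pdgfrb fell, and Col1a1 (-0.54) and Dcn (-0.49) were not called. Dcn rose by 1.76 in the smaller set and fell by 2.00 in the larger. The 8 macrophage markers in the table, of 12 listed, summed to 21.4 to 34.6 CPM in controls and 69.3 to 109 CPM with stiripentol. Without Cd68 the sum was 16.7 to 18.7 CPM in controls and 6.30 to 14.2 CPM with stiripentol. Ptprc, Itgam, Aif1 and Csf1r never exceeded 0.409 CPM. Over all libraries Cd14 ran from 5.51 to 15.5 CPM, Lyz2 from 0.577 to 3.74 and Mrc1 from 0.0690 to 3.72. Cd14 fell by 0.95 (limma adjusted p = 0.00469), Lyz2 (0.41) was not called and Mrc1 was not tested. The 4 epithelial markers summed to 2278 to 2598 CPM in controls and 1544 to 2145 CPM with stiripentol. That sum is nearly all Krt8 and Krt18, as Epcam reached at most 0.0447 CPM and Cdh1 at most 1.09 CPM. Krt8 fell by 0.36 (limma adjusted p = 0.0202) and Krt18 (-0.47) was not called. The 7 neuroendocrine markers in the table summed to 93.5 to 120 CPM and 127 to 157 CPM. Nearly all of that is Ncam1, with 92.8 to 154 CPM over all libraries. The part of these markers in the results above was not tested. In bulk RNA, fewer cells of one kind and less RNA per cell cannot be told apart.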

How the data were processed

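RNA sequencing was performed on 5 control and 5 stiripentol libraries. The methods name a Lexogen QuantSeq 3′ kit, and the labels name TruSeq total RNA. For every gene the authors deposited its log2 CPM in each library, made with GENAVi and holding a small prior. The submitters' processing notes name mm10, and the aligner and annotation are not given in the sources used here. The authors' means, ratios, p-values and q-values were not used. After removal of the prior, 100% of the low values checked gave whole reads (tolerance 0.1 read). Larger values were rounded without that check. Read totals describe counting error only. No library was a copy of another (chi-square per gene at least 7.25 within a group).

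Groups, taken from the sample titles, were compared with limma 3.58.1 on those log2 values in R 4.3.3 (mean-variance trend) over the 12306 genes with mean log2 CPM above 0, with Benjamini-Hochberg adjustment. Fold changes are ratios of geometric means that include the prior and understate those of low genes. The members and lists were chosen with earlier results of these data known. Library values are printed for the 3 called members with the largest change in each subgroup, for called members of opposite sign, for the MiT factors and for the proteolipid pair. Neu1, Sgsh, Cln3, Ctsf, Cd68 and Rragd were added after their values were seen. Up to 3 genes that rose and each gene that fell are named per further list, and Flcn is named though it was not called. Tables were read with Python 3.11.15 and pandas 2.3.3. Exon overlaps were taken from GENCODE M21 (GRCm38) and promoters from RefSeq GRCm38.p6. The models were tested on simulated data whose libraries were drawn independently. Such libraries lack the likeness within a set that is seen here, so error rates under that likeness were not tested. Alternative fits dropped 1 library at a time, blocked on replicate number, added a library-set term, or used each set alone, set means, other scalings, filters or pseudocounts, or voom on the recovered reads.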

Additional observations from a re-analysis of the deposited data

Results flagged for a closer look

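The change with stiripentol differed between the smaller and the larger library set for 29 of the 52 tested genes (55.8%, limma interaction, adjusted p under 0.05), and for 63.3% of all genes tested, so the share was not larger among these genes. The sets were recognised in the data within each group. The match of controls to stiripentol libraries was not tested, and what sets the libraries apart is not stated. Among the values of each gene in each group, 108 groups of 5 libraries were examined for a library far from the other 4 (gap over range above 0.71), including read totals, and 3 were found where chance gives about 1 in 20, or 5.4. Stiripentol library 2 was the lowest of its group for Hexa, at 2.89 log2 CPM (gap over range 0.942). Control 1 was the highest of its group for Tfeb, at 5.30 log2 CPM (gap over range 0.71). Control 5 had the lowest total of the controls, with 22375625 reads (gap over range 0.83).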

How the results depend on the processing

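Leaving out 1 library gave 15 to 28 genes that rose (24 with all) and 0 to 4 that fell (3 with all). The fit without stiripentol library 1 gave 1 fall. Of all 12306 genes tested, 1218 to 1706 rose and 1171 to 1802 fell in these fits. A different change in the sets was called for 18 to 42 genes (29 with all), and the share of all genes was not counted for that range. The larger set alone gave 40 rises and 6 falls, the smaller set alone 6 falls, and a term for the library set 34 rises and 5 falls. With 1 mean per group and set, limma called 0 rises and 0 falls, with 6 higher and 1 lower at an unadjusted p under 0.05. With the libraries that were normalized together, 10 genes rose and 1 fell (10.1% and 9.87% of all genes in that fit). Its controls are of the smaller set only, so normalization and library set cannot be told apart there. With medians set equal, 18 genes differed between sets, and the share of all genes was not counted. Replicate numbers do not pair the libraries, since the correlations of deviations of same-numbered libraries were -0.24 to 0.06 and none of 10 libraries correlated best with its own number. With the replicate number as a block, 16 genes rose and 1 fell, where 1020 rose and 1062 fell of all 12306 genes tested. The change of Glb1 was -0.37 in the smaller set and -0.52 with the libraries normalized together, and that of Naglu was -0.39 in the smaller set, against values above 0 with all libraries. In 43 other cases a change that was called in neither fit took the other sign. Of the 27 genes called, 12 lost the call in at least 1 fit without 1 library, and none kept it under every alternative, since none passed with 1 mean per group and set. The fit without a filter left out genes with no read in any library. The cause of these shifts was not tested, except that the fits of 1 set, of 1 mean per set and of the libraries normalized together hold fewer values. All p-values count the libraries of a set as separate replicates. The depth of Cln3, Mitf and Ctsf, under 100 reads in at least 1 library, limits their precision.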
